A study of Mus musculus with 6 samples.

Results

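Each cytosolic ribosome of a mouse cell is built from ribosomal RNA and a fixed set of ribosomal proteins, most of them present once in either the large or the small subunit. Their mRNAs are among the most abundant of growing cells, and many begin with a short run of pyrimidines, the terminal oligopyrimidine (TOP) start, through which the kinase complex mTORC1 and the RNA-binding protein Larp1 control their translation. Neutrophils leave the marrow as cells that no longer divide and that have already made much of their granule protein. The genes described here are the protein-coding genes whose mouse symbol is Rpl or Rps followed by a digit, together with Rplp0, Rplp1, Rplp2 and Rpsa, without the Rps6k kinases and without pseudogenes. The rule gave 85 of the 25663 genes in the count table. Of these, 46 encode large-subunit and 31 small-subunit proteins. The other 8 carry paralog-type symbols (Rpl3l, Rpl7l1, Rpl22l1, Rpl36al, Rpl39l, Rps27l, Rps27rt and Rps19bp1), and Rps19bp1 is matched only by its letters, since it encodes a nucleolar protein that binds Rps19.

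RNA was sequenced from C57BL/6 mouse bone-marrow neutrophils, sorted as CD45+CD11b+Ly6G+ cells and then cultured for 6 hours. One group received LPS, a bacterial cell-wall lipid that activates neutrophils (n = 3). The other received LPS and the plant polyphenol resveratrol, written as 25 μmol in the labels (n = 3). All 6 libraries thus come from LPS-treated cells, and no library without LPS was analysed here. The series' own design text speaks of duplicates, whereas 3 libraries per group are labelled, and the labels do not say which is meant. Nothing in the labels ties the libraries of a group to separate mice, so p-values measure only the spread between libraries, which may be technical.

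Totals were 18141352 to 19928153 counts per library. LPS+resveratrol replicate 1 stood apart, with a chi-square per degree of freedom of 117 and 120 against replicates 2 and 3, while the other pairs within groups lay between 3.29 and 15.2. Every result is therefore given with and without it. The sorted cell type was borne out by its markers: all 9 mature neutrophil markers were tested, and their summed level was 39300 to 42100 CPM (counts scaled to the same library total) with LPS and 44700 in both LPS+resveratrol replicates 2 and 3, but 21900 in replicate 1. The 10 neutrophil precursor markers summed to 29700 to 32400 CPM with LPS and to 31100, 36200 and 37300 CPM with LPS+resveratrol. The 8 cycling-cell markers summed to 681 to 704 CPM with LPS, 915 in replicate 1, and 584 and 538 in replicates 2 and 3. Monocyte, B-cell, T- or NK-cell, erythroid, dendritic and eosinophil, basophil or mast cell markers summed to at most 2730, 174, 17.0, 93.5, 141 and 133 CPM in any library. The monocyte sum was 2580, 2580 and 2540 CPM with LPS and 2490, 2730 and 2690 CPM with LPS+resveratrol. Without replicate 1, 6 of the 8 cycling-cell markers fell and 2 rose, 6 of the 10 precursor markers fell and 3 rose, and 5 of the 8 monocyte markers fell and 1 rose. Of the 9 mature neutrophil markers 4 rose and 0 fell, and 10 markers of the remaining lists fell and 0 rose. Those that fell were 3 of 7 tested B-cell, 2 of 6 T- or NK-cell and 1 of 7 erythroid markers. The others were 2 of 6 dendritic and 2 of 7 eosinophil, basophil or mast cell markers. Among all tested genes 12.1% rose and 13.3% fell in that fit, and no count over a marker list was tested. None of the defining markers was at 0 in every library. In RNA from bulk cells, fewer cells of a type and less RNA per cell cannot be told apart.

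Runs of pyrimidines were searched around the annotated transcription starts. Of the 65 ribosomal protein genes with a listed start in RefSeq (GRCm38.p6), 38 (58.5%) held an unbroken run of at least 7 bases that are C or T within 20 bases before or after it, against 27.5% of 27025 genes and 23.5% of 68 mitochondrial ribosomal protein genes. The motif CCGGAAG, searched on both strands of the 300 bases around the start (250 before and 50 after), was found in 26 of the 65 (40%), in 9.93% of all genes and in 36.8% of the mitochondrial group. A gene with several listed starts was counted if any of them matched, so more starts gave more chances of a match. A match describes the letters only, not that an mRNA begins there, and 20 of the 85 genes had no listed start. The 30 bases below run 5′ to 3′ on the transcribed strand from 15 before the listed start, and capitals mark every such run. Where a gene has several listed starts, the one with the longest run is shown. Those of Rpl4, and the first of the pair in Rpl31, end before the listed start. Among other genes that rose without replicate 1, the longest run in the window was 9 bases for Rps27, 5 for Rps16 and 3 for Rpl41. Their windows are not shown. Rps9, Rps21 and Rpl31 are shown because their mRNAs rose without replicate 1, and Rps6 because its protein is the classic target of the mTORC1 pathway. Rpl4 is shown because its level held best in replicate 1, and Rpl10 because it rose and its window holds no such run.
Rps9 (chr7:3704026-3704055, plus strand): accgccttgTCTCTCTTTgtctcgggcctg
Rps21 (chr2:180257364-180257393, plus strand): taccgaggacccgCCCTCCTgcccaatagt
Rpl31 (chr1:39367836-39367865, plus strand): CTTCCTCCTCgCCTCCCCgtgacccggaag
Rps6 (chr4:86857353-86857382, minus strand): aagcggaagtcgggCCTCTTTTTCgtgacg
Rpl4 (chr9:64173372-64173401, plus strand): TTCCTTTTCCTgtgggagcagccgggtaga
Rpl10 (chrX:74270801-74270830, plus strand): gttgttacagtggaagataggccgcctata

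Ribosomal protein mRNAs took nearly the same share of all libraries but one. The 85 genes held 0.873%, 0.904% and 0.856% of the counts with LPS, and 0.378%, 0.909% and 0.917% with LPS+resveratrol. The LPS mean was 0.878% ± 0.0242 and the LPS+resveratrol mean 0.735% ± 0.309 (SD, n = 3 each), so the difference of −0.143 percentage points was smaller than the spread within the resveratrol group. Without replicate 1 its sign was opposite, at 0.035 percentage points. Replicate 1 held 41.4% of the mean share of replicates 2 and 3, and LPS+resveratrol replicates 2 and 3 lay just above the highest LPS library.

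Both subunits showed the low share of replicate 1. Large-subunit genes held 0.460%, 0.476% and 0.451% of the counts with LPS and 0.203%, 0.476% and 0.480% with LPS+resveratrol. Small-subunit genes held 0.399%, 0.413% and 0.392%, and then 0.168%, 0.419% and 0.424%. Replicate 1 thus stood at 42.6% of replicates 2 and 3 for the large and 39.9% for the small subunit. It stood at 32.5% for 159 rows named as ribosomal protein pseudogenes and at 66.1% for 77 mitochondrial ribosomal protein genes.

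**Figure D1:**
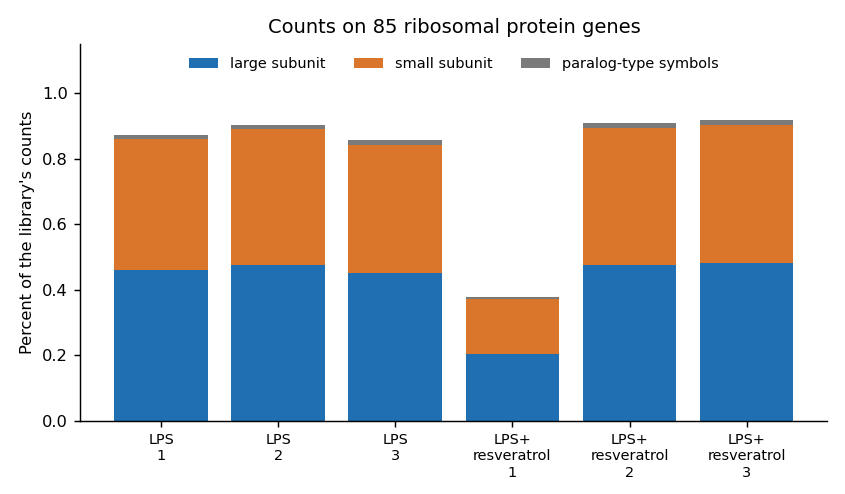
Percent of each library's counts on the 85 ribosomal protein genes, stacked by large subunit, small subunit and paralog-type symbols. LPS+resveratrol replicate 1 reaches 0.378%, and the other 5 libraries lie between 0.856% and 0.917%.

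Over all 6 libraries no ribosomal protein gene rose or fell. Of the 85 genes, 82 had enough counts to be tested, and 0 of them passed an adjusted p of 0.05 in edgeR's quasi-likelihood test, against 1.83% of the 13468 tested genes. At an unadjusted p under 0.05 there was 1 gene in edgeR and 2 each in DESeq2 and limma-voom, and neither of these called any after adjustment, with 6.09% and 1.74% of tested genes called. The smallest edgeR adjusted p was 0.231, that of Rpl3l. The median log2 fold change (LPS+resveratrol over LPS) of the 82 was −0.30, with quartiles of −0.39 and −0.18 and a range from −0.95 to 0.06, while the median of all tested genes was −0.00. The estimates were negative for 78 genes and positive for 4. The medians were −0.30 for 45 large-subunit and −0.29 for 31 small-subunit genes.

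Without replicate 1, 55 of the 82 estimates were positive and 27 negative. All 82 tested genes were lower in replicate 1 than in each of the other 5 libraries, which was true of 34.4% of tested genes. The resveratrol libraries lay wholly below the LPS libraries for 8 genes, against 15.9% of tested genes, and wholly above for 0, against 17.3%. Those 8 were Rpl3l, Rpl7l1, Rpl10a, Rpl36, Rpl36a, Rps18, Rps28 and Rps19bp1, named here after their values were seen.

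**Figure D2:**
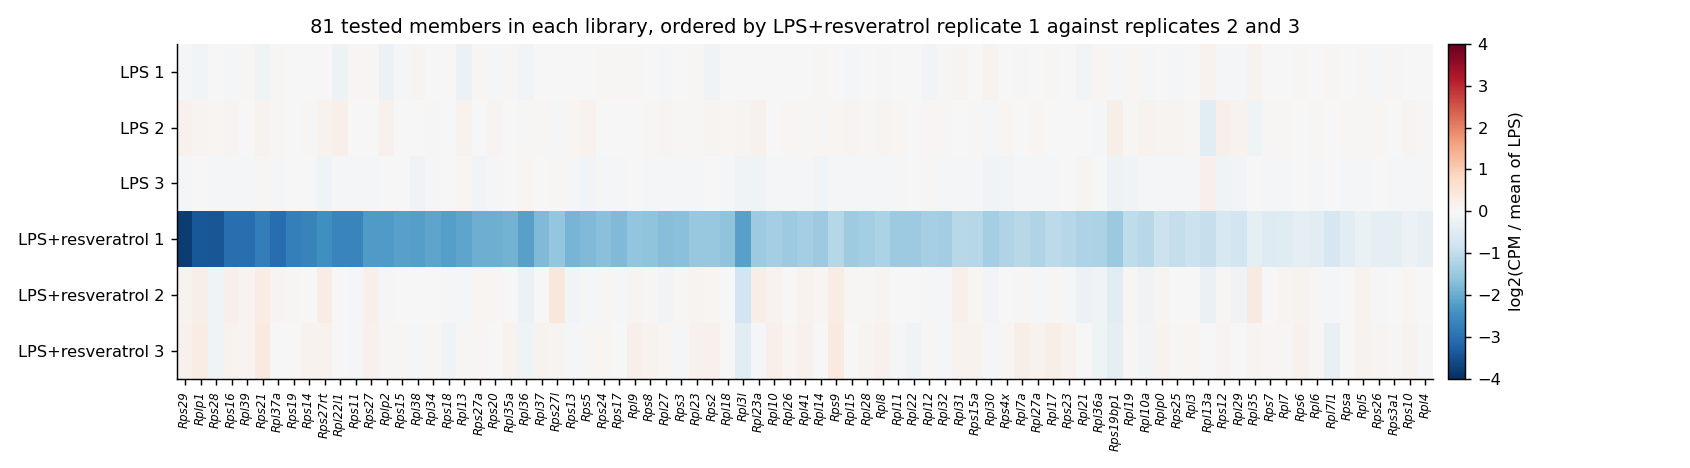
Level of 81 of the 82 tested genes in each library as the log2 ratio of its CPM to the LPS mean, with genes ordered by replicate 1 against LPS+resveratrol replicates 2 and 3. The row of LPS+resveratrol replicate 1 is low for all 81 genes, most of all for Rps29 and Rplp1 on the left. All 81 lie closer to 0 in the other 5 rows than in that row, though some stand away from 0 there too, such as Rpl3l, at 3.29 CPM in LPS+resveratrol replicate 2 against 5.08 to 6.09 with LPS.

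Without LPS+resveratrol replicate 1, small rises and a few falls passed the test, and most ribosomal protein mRNAs stayed within a narrow band. Of the 82 genes, 10 rose and 3 fell, which is 15.9% against 25.4% of all tested genes (12.1% higher and 13.3% lower). The rises are thus near the share of all genes, and whether the falls are fewer was not tested. The median log2 fold change was 0.03, with quartiles of −0.02 and 0.12, beside −0.01 for all tested genes. The estimate lay within 0.1 of 0 on the log2 scale for 44 genes and within 0.2 for 72. At an unadjusted p under 0.05 there were 24 genes. Both resveratrol libraries lay above the 3 LPS libraries for 21 genes, against 25.4% of tested genes, and below them for 8, against 24.5%. These tests set 3 LPS libraries against 2, and the biological coefficient of variation was 7.43% there and 19.8% over 6 libraries.

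Without replicate 1, 5 of the 45 tested large-subunit genes rose and 1 fell, beside 12.1% and 13.3% of all tested genes. Rpl10, which joins the large subunit late, in the cytoplasm, was at 146, 144 and 140 CPM with LPS and 55.6, 159 and 166 CPM with LPS+resveratrol. Without replicate 1 the 2 remaining libraries were above all LPS libraries, and the log2 fold change was 0.17 ± 0.0499 (adjusted p = 0.0081 by edgeR). Rpl31, found near the exit of the peptide tunnel, was at 98.8, 91.5 and 87.1 CPM with LPS and 42.5, 107 and 103 CPM with LPS+resveratrol, a log2 fold change of 0.17 ± 0.0581 without replicate 1. Rpl41, the smallest of the ribosomal proteins, was at 128, 130 and 121 CPM and then at 49.7, 140 and 143 CPM, a log2 fold change of 0.15 ± 0.0517. Rpl31 and Rpl41 had edgeR adjusted p-values of 0.0245 and 0.0294 without replicate 1 and did not overlap between groups there.

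Rpl36 was the large-subunit gene that fell. It was at 39.0, 43.8 and 44.7 CPM with LPS and 9.52, 35.8 and 37.8 CPM with LPS+resveratrol, so that all 3 resveratrol libraries were below all LPS libraries. The log2 fold change was −0.62 ± 0.443 over 6 libraries (adjusted p = 0.465 by edgeR) and −0.22 ± 0.0783 without replicate 1 (adjusted p = 0.0363 by edgeR). Rpl36 shares 81.1% of its 50-base windows with other annotated genes, 12 of them pseudogenes, so reads of its copies may be counted with it. Genes that rose share windows too, most of all Rpl10 with 85.4% and Rps6 with 84.6%, each with 14 pseudogenes. Rps27 shares 63.1% and Rplp1 60.0%, and the lowest share among the genes named as risen is 14.3%, that of Rps9.

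The stalk of the large subunit, where elongation factors bind, is formed by Rplp0 with pairs of Rplp1 and Rplp2. Rplp1 was at 92.4, 106 and 99.5 CPM with LPS and 9.57, 117 and 121 CPM with LPS+resveratrol. Replicate 1 was at 8.04% of replicates 2 and 3, and without it Rplp1 rose by a log2 fold change of 0.25 ± 0.0566 (adjusted p = 0.000796 by edgeR). Its partner Rplp2 was at 60.7, 80.1 and 72.3 CPM and then at 14.9, 67.5 and 72.8 CPM, a log2 fold change of −0.03 ± 0.0922 without replicate 1 that did not pass. Rplp0 was at 331, 360 and 318 CPM and then at 186, 365 and 373 CPM, giving 0.13 ± 0.0557 on the log2 scale without replicate 1 (adjusted p = 0.0983 by edgeR). The 3 stalk genes thus gave 1 call, and whether they differ from each other was not tested.

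Of the 31 small-subunit genes, 5 rose without replicate 1 and 0 fell, beside 12.1% and 13.3% of all tested genes. Rps9, a protein at the mRNA entry side of the small subunit, was at 480, 512 and 467 CPM with LPS and 220, 592 and 633 CPM with LPS+resveratrol. Its log2 fold change was −0.01 ± 0.352 over 6 libraries and 0.32 ± 0.0538 without replicate 1 (1.25-fold, adjusted p = 1.18e-05 by edgeR), the smallest adjusted p of the 82 genes. Rps21, which sits beside the counterpart of Rpsa in yeast ribosomes, was at 24.5, 30.5 and 28.5 CPM with LPS and 4.10, 34.5 and 36.7 CPM with LPS+resveratrol. It had the highest estimate of the 82 genes without replicate 1, 0.35 ± 0.0851 (1.27-fold, adjusted p = 0.00192 by edgeR), and replicate 1 was at 11.5% of replicates 2 and 3.

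Rps6, the small-subunit protein that S6 kinases phosphorylate downstream of mTORC1, was at 209, 201 and 200 CPM with LPS and 160, 223 and 230 CPM with LPS+resveratrol. It was above all LPS libraries in replicates 2 and 3 and below them in replicate 1, and its log2 fold change was 0.01 ± 0.149 over 6 libraries and 0.15 ± 0.0486 without replicate 1 (adjusted p = 0.0225 by edgeR). Rps16, whose tail reaches the tRNA in the P site, was at 133, 149 and 133 CPM and then at 17.0, 159 and 153 CPM, a log2 fold change of 0.16 ± 0.0533 without replicate 1 (adjusted p = 0.0199 by edgeR). Rps27, a zinc-finger protein of the small subunit, was at 53.9, 51.8 and 49.5 CPM and then at 10.7, 59.6 and 58.9 CPM, a log2 fold change of 0.19 ± 0.0699 (adjusted p = 0.0439 by edgeR). For all 3 genes the groups separated only once replicate 1 was left out.

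The 13 calls without replicate 1 differed in how firmly they held. Each was tested again in 8 ways, with DESeq2, limma-voom, offsets for the GC content and length of transcripts, and with each of the other 5 libraries left out as well. Of the 12 named here, Rps9 passed in all 8, and Rps21, Rplp1 and Rpl10 in 7. Rpl3l passed in 6, Rps6 in 5, Rpl41 in 4, Rps27, Rpl31, Rps16 and Rpl7l1 in 3, and Rpl36 in 2. All 13 kept their sign in all 8. DESeq2 called 6 higher and 0 lower (9.07% and 9.84% of tested genes), limma-voom 10 and 3 (12.1% and 13%), and edgeR with offsets 16 and 1 (12.9% and 12.2%). With LPS replicate 3 also left out, 6 rose and 1 fell. The share of all tested genes called in that fit was not counted. The median log2 fold change was 0.02 there, and also 0.02 with LPS+resveratrol replicate 3 left out in its place.

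**Figure D3:**
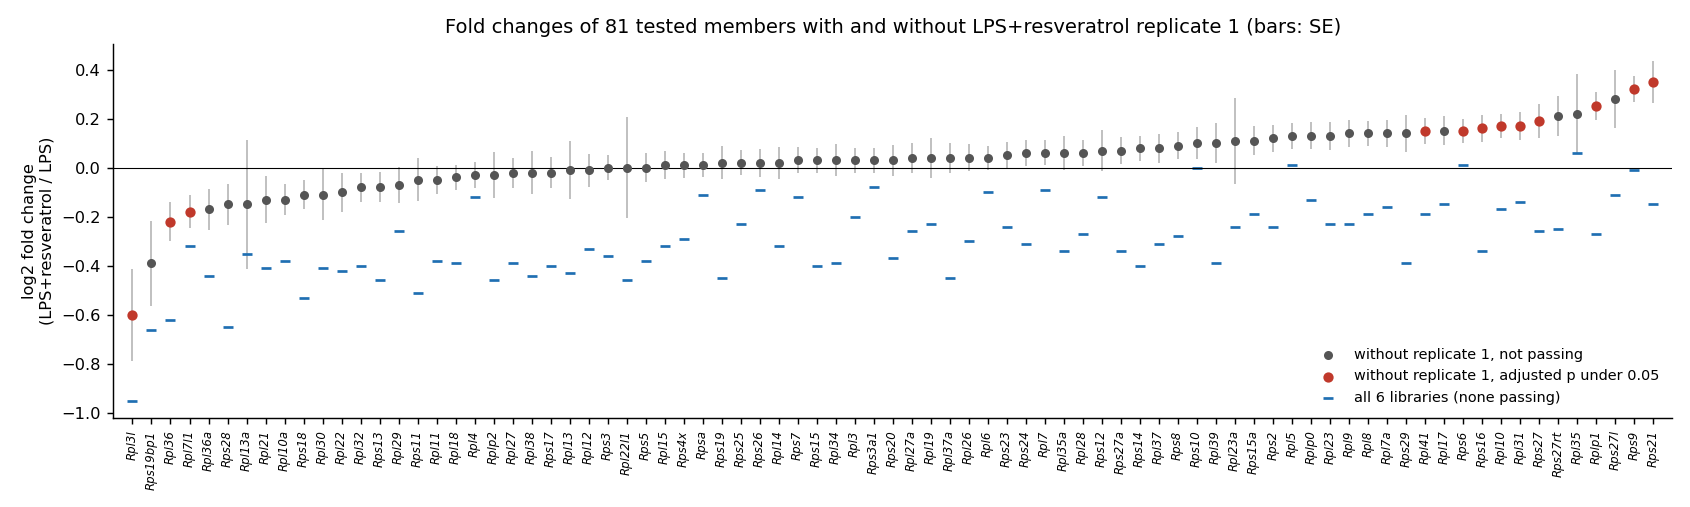
Log2 fold change of 81 of the 82 tested genes without LPS+resveratrol replicate 1 (points, with bars of 1 standard error; the 12 of them that passed in red) and over all 6 libraries (dashes). The points run from −0.60 for Rpl3l to 0.35 for Rps21, and the dashes lie below the points for every gene shown.

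Several ribosomal proteins known for duties outside the ribosome or from inherited disease did not pass in either fit. Rpl5 and Rpl11, which with 5S ribosomal RNA bind the p53 inhibitor Mdm2, had log2 fold changes of 0.13 ± 0.052 and −0.05 ± 0.0557 without replicate 1. Rps14 and Rps19, whose haploinsufficiency in humans causes anaemia, had 0.08 ± 0.0509 and 0.02 ± 0.067. Rpsa, also known as the laminin receptor precursor, and Rps3, which lines the mRNA entry channel, had 0.01 ± 0.0498 and 0.00 ± 0.0517. Rpl22, an RNA-binding protein whose loss affects lymphocytes in mice, had −0.10 ± 0.0798. For these 7 genes the edgeR adjusted p without replicate 1 was between 0.0625 for Rpl5 and 0.977 for Rps3. Rpl13a, which in human monocytes leaves the ribosome and represses inflammatory mRNAs, had −0.15 ± 0.262 at 1.31 to 2.88 CPM, too few counts for a narrow error.

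Among the paralog-type genes, Rpl3l and Rpl7l1 fell without replicate 1. Rpl3l, the paralog of Rpl3 that is best known from striated muscle, was at 5.77, 6.09 and 5.08 CPM with LPS and 1.26, 3.29 and 4.18 CPM with LPS+resveratrol. All 3 resveratrol libraries were below all LPS libraries, and its log2 fold changes, −0.95 ± 0.377 over 6 libraries and −0.60 ± 0.187 without replicate 1 (adjusted p = 0.0144 by edgeR), were the lowest of the 82 genes. Rpl3 itself, at 155, 158 and 149 CPM with LPS, had 0.03 ± 0.0502 without replicate 1. Rpl7l1, a paralog of Rpl7, was at 77.7, 75.2 and 74.3 CPM with LPS and 47.9, 72.7 and 61.5 CPM with LPS+resveratrol. It fell by a log2 fold change of 0.18 ± 0.0678 without replicate 1, with an adjusted p of 0.0443 in edgeR. Rpl7 had 0.06 ± 0.0511. Whether a paralog differed from its parent gene was not tested.

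The other paralog-type genes gave no call. Rpl22l1, the paralog of Rpl22, was at 3.27, 4.31 and 3.61 CPM with LPS and 0.602, 3.72 and 3.77 CPM with LPS+resveratrol, a log2 fold change of −0.00 ± 0.206 without replicate 1. Rps27l, a paralog of Rps27 that p53 induces in human cells, was at 10.9, 10.6 and 11.2 CPM and then at 3.77, 14.9 and 11.8 CPM, a log2 fold change of 0.28 ± 0.12 (adjusted p = 0.0898 by edgeR). Rps27rt, a retrogene of Rps27, had 0.21 ± 0.0825 (adjusted p = 0.0562 by edgeR), and Rps19bp1 −0.39 ± 0.173 (adjusted p = 0.099 by edgeR). Rpl36al and Rpl39l had at most 12 and 4 counts in any library and were not tested.

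The sequences of these paralogs set how far their counts can be separated, and the coding sequences of Rps27 and Rpl39 with a paralog of each are shown for that reason. The coding sequence of Rps27rt (chromosome 9) differs from that of Rps27 (chromosome 3) at 0 of 255 bases, so coding reads of the 2 genes cannot be told apart and their separate values are uncertain. Rps27l differs from Rps27 at 61 bases (76.1% identity), and Rpl39l from Rpl39 at 23 of 156 (85.3%). In the lines below, from GENCODE M21 on GRCm38, capitals mark the bases where the paralog differs from its parent.
Rps27: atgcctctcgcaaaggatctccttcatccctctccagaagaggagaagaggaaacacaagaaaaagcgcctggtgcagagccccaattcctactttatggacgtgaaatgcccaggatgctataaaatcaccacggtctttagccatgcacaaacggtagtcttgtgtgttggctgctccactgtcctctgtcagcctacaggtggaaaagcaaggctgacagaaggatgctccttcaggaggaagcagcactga
Rps27l: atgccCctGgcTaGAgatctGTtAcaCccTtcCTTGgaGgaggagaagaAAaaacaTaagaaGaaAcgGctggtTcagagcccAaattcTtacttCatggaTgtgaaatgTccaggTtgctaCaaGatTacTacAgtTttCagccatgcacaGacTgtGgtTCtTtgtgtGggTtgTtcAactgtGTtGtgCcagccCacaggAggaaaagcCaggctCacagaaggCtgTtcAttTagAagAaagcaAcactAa
Rpl39: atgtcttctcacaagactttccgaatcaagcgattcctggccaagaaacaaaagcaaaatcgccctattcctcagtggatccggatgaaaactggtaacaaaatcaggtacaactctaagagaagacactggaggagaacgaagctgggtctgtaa
Rpl39l: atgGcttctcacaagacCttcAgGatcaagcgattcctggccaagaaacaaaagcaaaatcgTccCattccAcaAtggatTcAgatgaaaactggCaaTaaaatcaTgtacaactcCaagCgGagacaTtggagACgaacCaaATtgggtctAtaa

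Within LPS+resveratrol replicate 1 the levels were far from even across the ribosome. The level in replicate 1 ran from 6.45% of the mean of replicates 2 and 3 for Rps29 to 81.1% for Rpl4, and it was under 50% for 64 of the 82 genes, against 11.4% of tested genes. Next to Rps29 at the low end were Rplp1 at 8.04%, Rps28 at 10.4%, Rps16 at 10.9%, Rps21 and Rpl39 at 11.5% each and Rpl37a at 11.8%. At the high end, below Rpl4, were Rps10 at 78.6%, Rps3a1 at 76.7%, Rps26 at 76.6%, Rpl5 at 74.7%, Rpsa at 73.8% and Rpl6 at 71.9%. Both ends hold proteins of both subunits. These genes are the extremes of a ranking and were chosen after their values were seen.

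Replicate 1 was lowest for the shortest mRNAs. The 10 genes with a coding length under 300 bases had a median log2 deviation of −2.87 from replicates 2 and 3, against −1.49 for 29 genes of 300 to 450 bases, −1.48 for 17 of 450 to 600 and −1.24 for 26 of at least 600. Over 76 tested genes without paralog-type symbols, Pearson's r with coding length was 0.57 and Spearman's rho 0.50. With transcript length they were 0.44 and 0.48, and with GC content −0.16 and −0.20. All points share the same 3 libraries. Rpl41 has the shortest coding sequence, at 141 bases, and stood at 35.2%, above genes of greater length such as Rps19 at 14.6% with 639 bases.

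Rps29, a zinc-binding protein of the small subunit with 171 coding bases, was the gene lowest in replicate 1. It was at 51.6, 61.7 and 51.6 CPM with LPS and 3.94, 60.1 and 62.0 CPM with LPS+resveratrol. Rpl4, with 1260 coding bases, was at 356, 366 and 338 CPM and then at 282, 351 and 345 CPM. Both were lowest in replicate 1, and neither passed without it.

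Within broad classes of transcript length, ribosomal protein genes had lower medians in replicate 1 than other genes, both held to a mean level of at least 5 CPM. Lengths still differ within a class, the last of which has no upper limit, and the part of length in these values was not tested. With transcripts under 500 bases, the median log2 deviation was −2.34 for 14 ribosomal protein genes and −0.53 for 108 others. From 500 to 750 bases it was −1.58 and −0.30, and from 750 to 1000 bases −1.33 and −0.35. At 1000 bases or more it was −1.22 for 15 ribosomal protein genes and 0.11 for 6581 others. In the highest class of GC content, at least 55%, it was −1.58 and −0.34. Over all tested genes the median was 0.03, and for mitochondrial ribosomal protein genes it was −0.69. The lower sum of mature neutrophil markers in the same library is given above, and its part in these values was not tested.

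In the LPS libraries the same measure was small, and coding length did not go with the fold change without replicate 1. The median deviation of the 82 genes from the other libraries of the group was 0.00, 0.08 and −0.09 in the 3 LPS libraries. It was 0.73 and 0.78 in LPS+resveratrol replicates 2 and 3, whose reference includes replicate 1. Over the 76 genes, the log2 fold change without replicate 1 had r = −0.01 and rho = 0.01 with coding length, and r = 0.27 and rho = 0.27 with the mean log2 level.

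**Figure D4:**
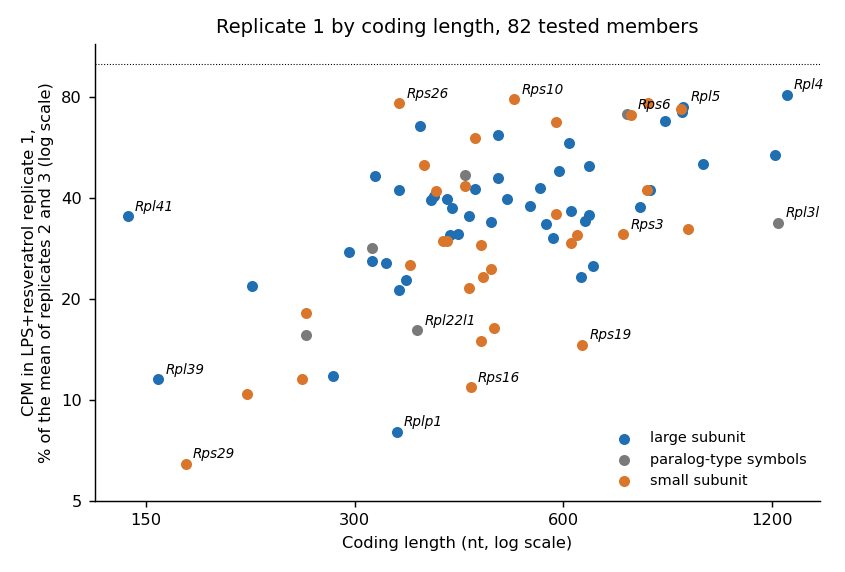
Level in LPS+resveratrol replicate 1 as a percent of the mean of replicates 2 and 3 (log scale) against coding length in nucleotides (log scale) for the 82 tested genes, coloured by subunit. All points lie below the dotted line at 100%, from Rps29 at 6.45% to Rpl4 at 81.1%, and the 7 lowest include both short genes such as Rpl39 and the longer Rps16.

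Although most ribosomal proteins are present once per ribosome, their mRNA levels per length varied widely. In the LPS group the median level of the 77 genes without paralog-type symbols was 139 CPM per kilobase of transcript, with quartiles of 89.8 and 185. It was 130 for the large and 148 for the small subunit. Rps9 was highest, at 590 ± 28 CPM per kilobase (SD, n = 3), then Rplp0 at 394 ± 25.1. Rps25, Rps24 and Rpl18 followed at 288 ± 18.6, 282 ± 13.3 and 280 ± 14.8, and these 3 did not differ beyond their spread. Per kilobase of coding sequence Rpl41 was first, at 897 CPM, then Rps9 at 831, Rps25 at 439, Rps24 at 368 and Rplp0 at 353, so the order depends on which length is used. Transcript length was the median over a gene's annotated coding transcripts, and for some genes it is shorter than the coding length. It was 854 bases for Rplp0 with 954 coding bases, and 543.5 for Rpl18 with 567. Rps20, at 3706 bases with 360 coding, ranked 71 per kilobase of transcript and 32 per kilobase of coding sequence. Levels per kilobase of transcript are therefore uncertain for such genes.

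The lowest genes were those with the largest exon overlap with another gene. Of the 77, 4 share at least 30% of their exon bases with another annotated gene, and these 4 were the lowest of all, with Rpl24 at 0.451, Rpl13a at 5.01, Rpl35 at 6.02 and Rpl23a at 9.26 CPM per kilobase of transcript. Rpl24 overlaps Gm28037 over 47.0% and Rpl13a overlaps Gm45713 over 35.4% on the same strand. Rpl35 overlaps Arpc5l and Wdr38 over 66.2% and Rpl23a overlaps Tlcd1 over 59.7% on the opposite strand. Reads shared between overlapping genes may be left out or split by a counting program, so these 4 levels, and Rpl24's 8, 6 and 3 counts with LPS and 3 in each resveratrol library, are uncertain. The lowest of the remaining genes was Rpl22 at 17.0, so the highest level was 1310 times the lowest over the 77 genes but 34.7 times without these 4. Of the 77, 76 share 50-base windows with some other gene, with a median of 43.9% of windows, and 28 share at least 50%. Across genes that share had a Spearman rho of −0.02 with the level. For the percent of exon bases that overlap another gene, rho with the level was −0.22. Smaller overlaps did not always go with low levels, as Rps25 has 24.8% on the opposite strand and was at 288 CPM per kilobase.

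Among the paralog-type genes, Rps27rt was at 103 and Rpl7l1 at 57.8 CPM per kilobase of transcript in the LPS group, and Rps27l at 21.9. The level of Rps27rt is uncertain, since its coding sequence is the same as that of Rps27. Rps19bp1 was at 7.62 ± 1.22, Rpl22l1 at 6.93 ± 0.991 and Rpl3l at 5.47 ± 0.502, where Rps19bp1 and Rpl22l1 did not differ beyond their spread. Rpl22l1 and Rpl3l were below their parent genes Rpl22 and Rpl3, which were at 17.0 and 189 CPM per kilobase. For Rpl3 and Rpl3l the transcript length used is shorter than the coding length. Per kilobase of coding sequence they were at 127 and 4.61 CPM.

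The rule does not match the symbols of some ribosomal protein genes. Fau, which encodes Rps30 fused to a ubiquitin-like protein, was at 225, 231 and 222 CPM with LPS and 73.1, 256 and 275 CPM with LPS+resveratrol. It rose without replicate 1, by a log2 fold change of 0.23 ± 0.0506 (adjusted p = 0.000742 by edgeR), and had −0.16 ± 0.427 over 6 libraries. Rack1, the scaffold protein of the small subunit, was at 188, 185 and 178 CPM with LPS and 96.1, 183 and 182 CPM with LPS+resveratrol. Its log2 fold change of −0.02 ± 0.0481 without replicate 1 did not pass, and both genes were lowest in replicate 1.

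Some translation factors and other mRNAs with a known TOP start rose as well. Without replicate 1, 6 of 18 rose and 1 fell, with a median log2 fold change of −0.03, beside 12.1% and 13.3% of all tested genes. Eef2, the elongation factor that moves the ribosome along the mRNA, was at 626, 678 and 647 CPM with LPS and 799, 826 and 857 CPM with LPS+resveratrol, above all LPS libraries in all 3. Its log2 fold change was 0.36 ± 0.0509 without replicate 1 (adjusted p = 6.57e-07 by edgeR) and 0.35 ± 0.0922 over 6 libraries (adjusted p = 0.112 by edgeR). Eif3f, a subunit of initiation factor eIF3, had 0.39 ± 0.0739, the histone chaperone gene Nap1l1 0.35 ± 0.0813 and Tpt1 0.24 ± 0.0532, all 3 passing without replicate 1. Eef1d and Eef1b2, exchange factors of elongation factor eEF1A, also rose (0.29 and 0.18), and Naca, of the nascent-chain complex, fell by 0.18. Eef1a1 itself had −0.07 and did not pass. Over 6 libraries none of the 18 passed in edgeR, and the list's median deviation in replicate 1 was −0.34.

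Most of the genes that assemble ribosomes fell without replicate 1. Of 35 ribosome assembly factors, 24 fell and 0 rose, against 13.3% and 12.1% of all tested genes, with a median log2 fold change of −0.44 where ribosomal protein genes had 0.03. Over 6 libraries the median was −0.46, and Gnl3 and Grwd1 fell, against 1.17% of tested genes. Neither passed once any of the other 5 libraries was left out in place of replicate 1. With LPS replicate 3 left out as well as replicate 1, 20 fell, and the share of all tested genes was not counted there. With only replicate 1 left out, DESeq2 called 18 lower, against 9.84% of all tested genes. In the same libraries 6 of the 8 cycling-cell markers fell and 2 rose, and their sum was 681 to 704 CPM with LPS and 584 and 538 CPM in LPS+resveratrol replicates 2 and 3. Of the precursor markers 6 of 10 fell and 3 rose, and of the monocyte markers 5 of 8 fell and 1 rose. Their summed levels were nonetheless higher in LPS+resveratrol replicates 2 and 3 than with LPS. Precursor sums were 36200 and 37300 CPM there, against 29700 to 32400. Monocyte sums were 2730 and 2690 CPM, against 2540 to 2580. The part of cycling, precursor or monocyte cells in the result was not tested. The assembly factors did not share the deviation of replicate 1, where their median was −0.00. The difference between the lists was not tested.

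Gnl3 (nucleostemin), a nucleolar GTPase, was at 19.0, 16.5 and 20.4 CPM with LPS and 11.2, 11.4 and 11.1 CPM with LPS+resveratrol. The groups did not overlap, and the log2 fold change was −0.72 ± 0.126 over 6 libraries (adjusted p = 0.0406 by edgeR) and −0.73 ± 0.111 without replicate 1. Dkc1, the pseudouridine synthase of ribosomal RNA, was at 18.9 ± 0.978 CPM with LPS (SD, n = 3) and at 15.9, 10.9 and 11.8 CPM with LPS+resveratrol, a log2 fold change of −0.74 ± 0.107 without replicate 1 (adjusted p = 9.54e-07 by edgeR). Nop2, an rRNA methyltransferase, fell by 0.67 ± 0.0972 and Wdr43, of the small-subunit processome, by 0.59 ± 0.0962. The Dkc1 partners Nhp2 and Gar1 fell by 0.70 and 0.56, and the rRNA methyltransferase Fbl and its partner Nop58 by 0.44 and 0.56. Ncl, Nop56, Sbds and Nop10 had 0.03, −0.07, −0.02 and 0.32 and did not pass. These 8 genes outside Gnl3, Dkc1, Nop2 and Wdr43 were chosen after their values were seen.

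RNA polymerase I transcribes the ribosomal RNA genes. Of its 14 genes, 3 fell and 0 rose without replicate 1, near the 13.3% and 12.1% of all tested genes, with a median log2 fold change of −0.15. They were the catalytic subunit genes Polr1a (−0.34 ± 0.0744) and Polr1b (−0.53 ± 0.16) and Twistnb (−0.30 ± 0.109). Of 11 genes of the mTORC1 arm, 1 rose and 2 fell, counts near the same shares of all tested genes. Larp1, which binds TOP starts and holds back their translation, was at 154, 161 and 160 CPM with LPS and 134, 110 and 108 CPM with LPS+resveratrol, below all LPS libraries in all 3. It fell by 0.55 ± 0.0515 without replicate 1 (adjusted p = 1.11e-10 by edgeR) and had −0.43 ± 0.117 over 6 libraries (adjusted p = 0.116 by edgeR). Eif4e, the cap-binding protein, fell by 0.31 ± 0.0811, and its inhibitor Eif4ebp2 rose by 0.33 ± 0.0476 without replicate 1. Mtor, Rptor and the S6 kinase gene Rps6kb1 had 0.01, −0.23 and −0.10 and did not pass.

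Of 10 tested genes for ribosome rescue and quality control, 1 rose and 3 fell without replicate 1, against 12.1% and 13.3% of all tested genes, with a median log2 fold change of −0.04. With so few genes these counts are near that background. Ascc3, the helicase that splits collided ribosomes, fell by 0.48 ± 0.0605, Usp10, which removes ubiquitin from small subunits, by 0.57 ± 0.142, and the collision sensor Gcn1l1 by 0.24 ± 0.0799. Rnf10, a ubiquitin ligase of the small subunit, rose by 0.26 ± 0.0498. None passed over 6 libraries in edgeR.

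Mitochondrial ribosomal proteins, which build the separate ribosome of mitochondria, had a median log2 fold change of −0.19 without replicate 1. Of 77 genes, 1 rose and 9 fell, against 12.1% and 13.3% of all tested genes. Mrpl52 was at 15.7, 17.5 and 15.9 CPM with LPS and 1.91, 6.37 and 7.34 CPM with LPS+resveratrol, below all LPS libraries throughout, and its log2 fold change was −1.26 ± 0.123 without replicate 1 and −1.65 ± 0.412 over 6 libraries, where edgeR's adjusted p-values were 2.95e-10 and 0.0967. Mrpl54 fell by 0.68 ± 0.156 and Mrps9 by 0.39 ± 0.122, and Mrpl24 rose by 0.33 ± 0.0808.

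**Figure D5:**
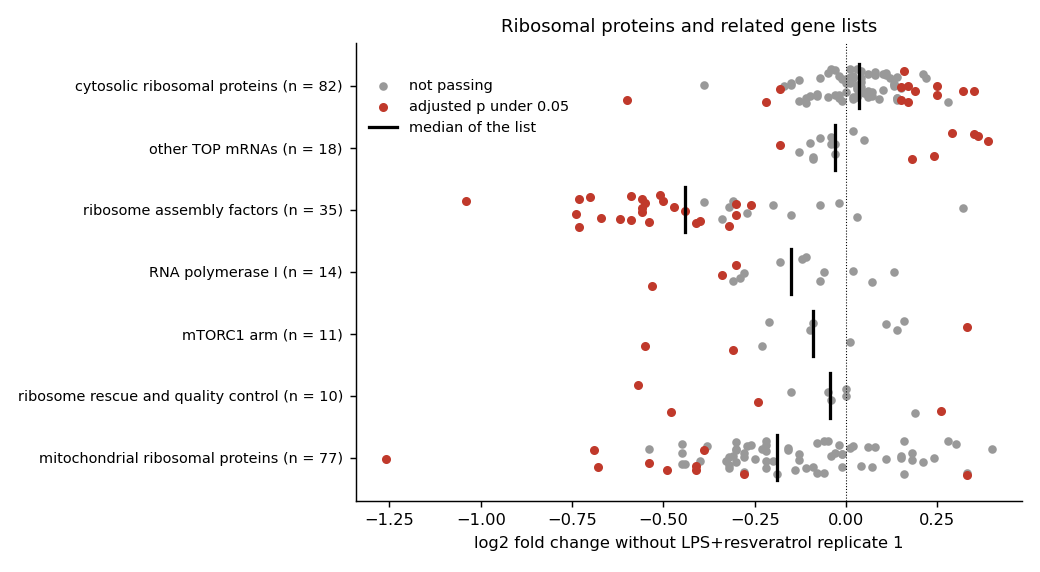
Log2 fold change without LPS+resveratrol replicate 1 for the tested genes of each list, 1 point per gene (red where the adjusted p was under 0.05), with the median of the list as a black bar. Cytosolic ribosomal protein genes centre at 0.03, and ribosome assembly factors at −0.44 with 24 of 35 passing.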

How the data were processed

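The authors deposited 1 table of raw counts, with a row for each Ensembl gene ID and a column for each library. A TruSeq RNA kit was used for the libraries, per the labels' protocols. Bowtie 0.12.2 and the genome build mm8 stand in the submitters' processing notes. For the counting program, its annotation, its use of strand and its treatment of reads with several matches, the sources used here give no name or setting. Reads of overlapping genes and of near-identical copies therefore cannot be assigned with certainty.

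Of 25663 IDs, 25595 were matched to a symbol in GENCODE M21, which also gave transcript and coding lengths, GC content, 50-base windows shared with other genes and exon overlap. Sequences are from that release and from RefSeq on GRCm38.p6. The files' own build differs, so no coordinate was used to read the counts. Of the 159 rows named as ribosomal protein pseudogenes, 5 are annotated as protein coding and were left out with the rest.

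Genes were kept by filterByExpr (minimum count 10), scaled by TMM factors and tested over all 13468 remaining genes by the robust quasi-likelihood test of edgeR 4.0.16 (R 4.3.3), two-sided, with group as the only term. P-values were adjusted by Benjamini and Hochberg's method, with 0.05 as the threshold. CPM are counts over the TMM-scaled library total, shares are of the unscaled total, and SE is from the F statistic. The fit was also run on counts simulated from its own estimates, with no library standing apart. That run cannot test calls that depend on replicate 1. Alternatives were DESeq2 1.42.0, limma-voom (limma 3.58.1), other size factors and filters, the replicate number as a block, length and GC offsets, other member sets and left-out libraries. Leaving out a library besides LPS+resveratrol replicate 1, and coding in place of transcript length, were added after the data were seen. Where a single resveratrol library was left, it was taken to vary like the LPS group.

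The members and all lists were chosen with earlier results of these data known, and no p-value is given over a list. Named are the genes that passed in either fit (up to 10 in each direction), the 5 highest and 5 lowest tested genes per kilobase, every paralog-type gene, 14 fixed members and up to 4 genes with the smallest adjusted p from each other list. Further genes named in the text were chosen after their values were seen. Single results that the rule would name are in part not reported here, while counts over all members include them. No 2 libraries of a group agreed within counting noise, so all were counted separately.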

Additional observations from a re-analysis of the deposited data

How the results depend on the processing

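Leaving out LPS+resveratrol replicate 1 changed the results on ribosomal protein genes, and the cause was not tested. The median log2 fold change was −0.30 and lay between −0.21 with offsets and −0.46 with limma-voom under other tools, scalings, filters and member sets, and between −0.55 and −0.28 with another library left out. Without replicate 1 it had the opposite sign, at 0.03 in edgeR and limma-voom, 0.04 with DESeq2, 0.07 with offsets and 0.02 to 0.06 with a further library left out (0.05, 0.06, 0.02, 0.04 and 0.02). The share difference was −0.143 percentage points, between −0.234 and −0.126 otherwise, and 0.035 without replicate 1. Calls went from 0 higher and 0 lower to 10 and 3 without it. They were then 6 and 0 with DESeq2, 10 and 3 with limma-voom, and 16 and 1 with offsets. With LPS replicate 1, 2 or 3 left out as well, they were 12 and 2, 14 and 2, and 6 and 1. For those further fits the share of all tested genes called was not counted. Without paralog-type genes, 10 rose and 1 fell when only replicate 1 was left out. Over 6 libraries no other setting called any ribosomal protein gene.

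Some genes with negative log2 fold changes over 6 libraries had positive ones past the threshold without replicate 1. With DESeq2, limma-voom and offsets there, the values were 0.18, 0.17 and 0.18 for Rpl10, 0.26, 0.25 and 0.29 for Rplp1, 0.35, 0.35 and 0.36 for Rps21, and 0.33, 0.32 and 0.37 for Rps9. With limma-voom and offsets they were 0.17 and 0.19 for Rpl31, 0.15 and 0.18 for Rpl41, and 0.17 and 0.19 for Rps16, with limma-voom 0.19 for Rps27, and with offsets 0.18 for Rplp0. Over all fits that left out 1 or 2 libraries, the ranges were −0.43 to 0.20 for Rpl10, −0.35 to 0.23 for Rpl31, −0.43 to 0.17 for Rpl41, −0.31 to 0.17 for Rplp0, −0.66 to 0.30 for Rplp1, −0.70 to 0.22 for Rps16, −0.54 to 0.41 for Rps21, −0.57 to 0.22 for Rps27, −0.49 to 0.43 for Rps27l, −0.63 to 0.28 for Rps27rt and −0.28 to 0.37 for Rps9.

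Over the 7 other lists together, 0 genes rose and 2 fell over 6 libraries. These counts were 2 and 10 with DESeq2, 2 and 4 with offsets, 0 and 4 with the filter of at least 50 counts, and 0 and 0 with each LPS library or LPS+resveratrol replicate 2 or 3 left out. Without replicate 1 they were 10 and 42, with DESeq2 9 and 25, with limma-voom 11 and 41, and with offsets 13 and 39. With LPS replicate 1, 2 or 3 left out as well, they were 9 and 32, 10 and 38, and 9 and 30. For those further fits the share of all tested genes called was not counted. Of the assembly factors, 18 to 24 fell in the fits that left out replicate 1 and kept LPS+resveratrol replicates 2 and 3. The ratio of the highest to the lowest level was 1310 per transcript length and 1390 per coding length, both resting on Rpl24. It was 34.7 and 19.3 without the 4 genes that share at least 30% of their exon bases with another gene.

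The replicate numbers were not taken to pair the libraries, since the labels give no pairing. Deviations of same-numbered libraries from their group means had correlations of 0.159, 0.148 and −0.0534. Those of differently numbered libraries ran from −0.169 to 0.17. The resveratrol mean includes replicate 1, which stood apart, so these values can neither show nor exclude a pairing. With the number as a replicate block, 0 ribosomal protein genes were called, their median was −0.45, and 0 genes of the other lists fell. Fits without replicate 1 rest on 2 resveratrol libraries or fewer, and intervals of low genes such as Rpl13a are set by counts under 60 per library.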
